A study of Sorghum bicolor with 12 samples.

Results

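The cultivar by drought interaction asks of each gene whether drought moved its transcript level differently in leaves of 2 sorghum (Sorghum bicolor) cultivars. It is the drought minus control change in Jinliang 5 (JL) minus the same change in Sanchisan (SCS), on the log2 scale, so a positive value means that the JL change was the higher of the 2. All 12 leaf libraries of the series entered, 3 in each of 4 groups: SCS with a normal water supply (control), SCS under drought, JL control and JL drought. Of the 33897 genes in the deposited table, 20873 passed the filter on low counts and were tested. The labels do not say how long or how severe the drought was, how old the leaves were, or whether each library is its own plant. The p-values therefore cover the spread among these samples alone, and part of that spread may be technical.

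A leaf that loses water accumulates abscisic acid (ABA), closes its stomata and makes proteins that protect dry cells, among them late embryogenesis abundant (LEA) proteins and dehydrins, together with compatible solutes such as proline and raffinose. As a deficit deepens, transcripts of the photosynthetic apparatus usually decline. Sorghum is a C4 plant: its mesophyll cells fix carbon with phosphoenolpyruvate carboxylase and pass it to the bundle sheath, where the Calvin cycle runs. Because each leaf sample mixes cell types, fewer cells of a type and less RNA per cell cannot be told apart here.

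Library totals were 15.04 to 18.4 M counts. The scaling factors (TMM, which correct for counts taken up by a few abundant genes) were 1.01 to 1.41 in SCS and 0.757 to 0.925 in JL, so scaling moved with cultivar. Levels below are TMM-scaled CPM (reads of a gene relative to the library's total), and changes are log2 fold changes of the edgeR quasi-likelihood fit. Summed markers of mesophyll ran from 33188 to 73567 CPM in SCS control and from 4951 to 13963 in SCS drought, against 91464 to 134190 in JL control and 98119 to 122564 in JL drought. C4 mesophyll transcripts, the defining ones of a sorghum leaf, were thus present in all 4 groups.

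Drought moved 107 genes differently in the 2 cultivars, 0.513% of those tested. The JL change was higher in 68 of them (0.326%) and lower in 39 (0.187%), with p-values adjusted over the 20873 genes by the Benjamini-Hochberg method and a threshold of 0.05. At an unadjusted p below 0.05 there were 3221 genes (15.4%), 2004 higher (9.6%) and 1217 lower (5.83%). The count depended on the fit: a replicate block called 17 genes, a stricter filter 212, DESeq2 1322 and limma-voom with quality weights 1912, and leaving out 1 library gave 8 to 424. The balance of directions turned in a limma-trend fit of log2(FPKM + 1), with FPKM as the authors deposited them, which called 109 higher and 154 lower. That fit differed in test, unit and pseudocount together, and the cause was not tested. The drought contrasts of the same fit, which share libraries with the interaction, called 1984 genes in SCS (9.51%) and 0 in JL, where 775 (3.71%) had an unadjusted p below 0.05.

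In all 107 called genes the SCS change was the larger of the 2 in size, and in most of them the JL change was small beside it. The psbC gene, at -1.23 in SCS and 0.85 in JL, and LOC8080535, at 1.58 and -0.91, were among those with JL changes nearest to the SCS change in size. All 68 higher genes fell in SCS, with a median of -4.47 there and 0.03 in JL, and 35 of them had a JL value above 0 and 33 below. All 39 lower genes rose in SCS, with a median of 4.61 there and -0.23 in JL, and 11 had a JL value above 0 and 28 below. The same quantity can be read across cultivars within a condition. JL minus SCS had a median of 0.52 in control and 5.13 in drought over the 68 genes, and of 0.41 and -5.18 over the 39. The cultivars stood further apart in drought than in control for 104 of the 107 genes, and 105 of the 107 were called between cultivars in drought, 2 in control, against 18.8% and 0.024% of all tested genes. SCS drought and control libraries did not overlap in any of the 107 (33.8% of all genes), and JL drought and control libraries did not overlap in 14 (5.19% of all genes). The interaction is made from these same libraries, so the choice of the genes largely fixes these counts between drought and control and between cultivars, and they are a description.

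**Figure D1:**
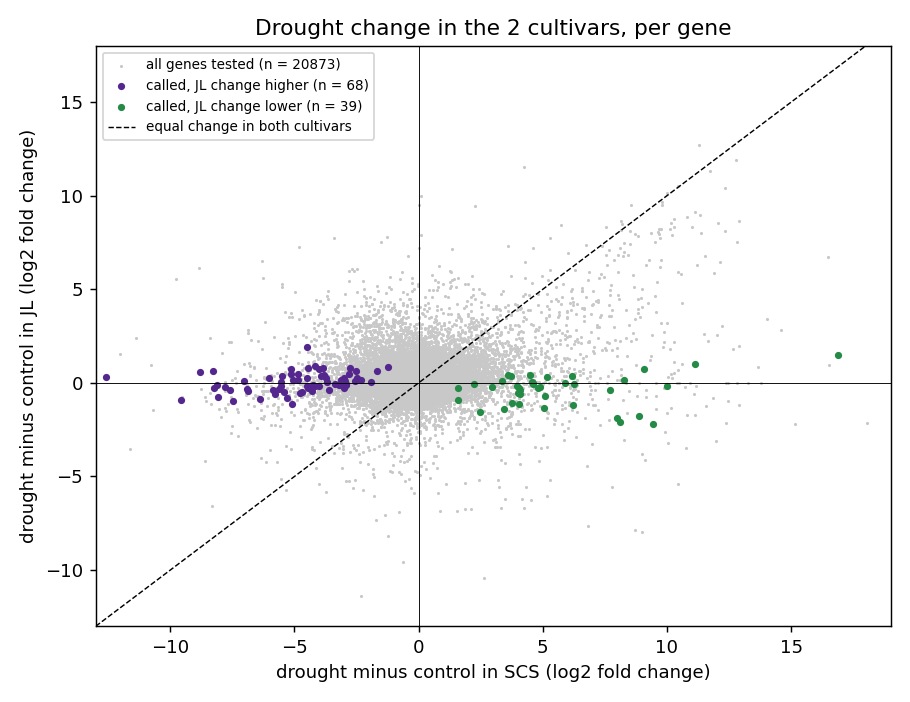
Each point is a gene, placed by its drought minus control log2 fold change in SCS (horizontal) and in JL (vertical); genes called for the interaction are coloured, and the dashed line marks equal change. The 68 and 39 called genes lie further from 0 along the horizontal axis than along the vertical one, at medians of -4.47 and 4.61 in SCS and of 0.03 and -0.23 in JL.

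Across all 20873 genes the SCS and JL changes, which share no libraries, had a Pearson correlation of 0.22 and a Spearman correlation of 0.12. This is a description across genes, which are not independent replicates. The standard deviation of the change was 1.89 in SCS and 1.15 in JL, and the median interaction was 0.13. The 854 genes that rose in SCS (4.09% of those tested) had a median of 2.62 there and of 0.23 in JL, and 68.1% of them had a JL value above 0, against 53.5% of all genes. The 1130 that fell in SCS (5.41%) had a median of -2.27 there and of -0.11 in JL, and 62.8% had a JL value below 0, against 46.4% of all genes. Of the genes that rose in SCS 4.57% were called for the interaction, and of those that fell 6.02%, against 0.513% of all genes. At an unadjusted interaction p below 0.05 the shares were 73.1% and 91.4%, against 15.4% of all genes. The SCS contrast shares libraries with the interaction, so the choice of the genes partly fixes these shares, and they are a description.

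The JL drought libraries did not behave alike for these genes. Set against the mean of the JL controls, the genes that rose in SCS had a median of 0.04 in JL drought 1, 0.59 in JL drought 2 and -0.09 in JL drought 3. In SCS drought the corresponding medians were 2.80, 2.74 and 1.86. The second JL drought library was thus the one nearest to SCS drought, while still far below it, and the third SCS drought library the mildest of its group. Genes that fell in SCS had medians of -0.18, -0.33 and 0.08 in the JL drought libraries and of -2.22, -2.28 and -2.08 in SCS drought. Without JL drought 2 the interaction called 224 genes, and without SCS drought 3 it called 424. Leaving out any 1 of the other 10 libraries left 8 to 36.

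**Figure D2:**
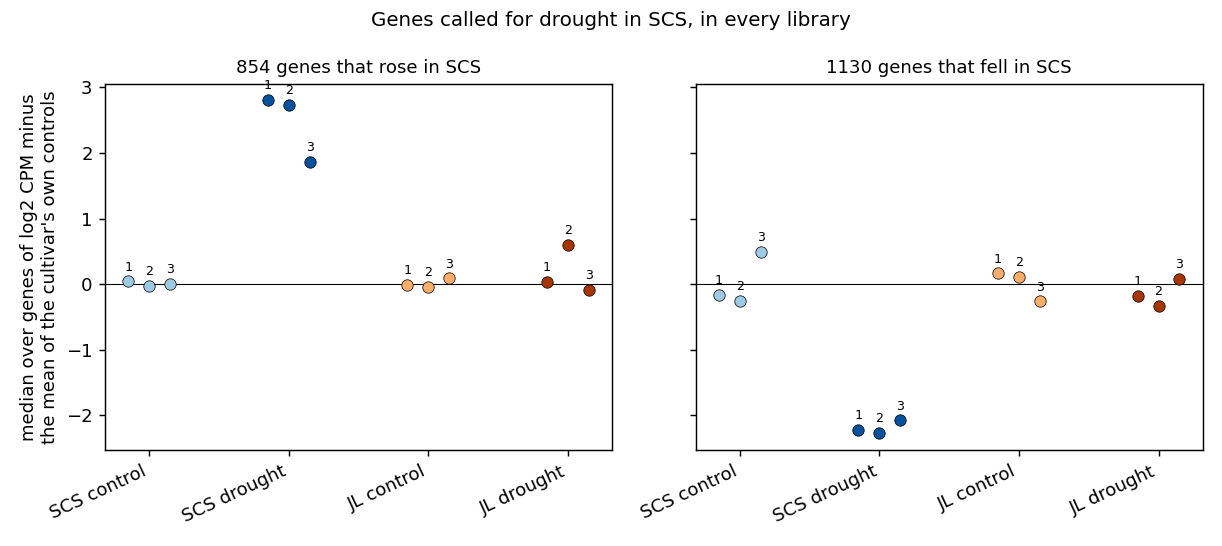
For the 854 genes that rose and the 1130 that fell in SCS, each numbered point is a library's median over genes of log2 CPM minus the mean of the same cultivar's controls. JL drought lies between -0.09 and 0.59 on the left and between -0.33 and 0.08 on the right, whereas SCS drought lies between 1.86 and 2.80 and between -2.28 and -2.08. The genes were chosen by the SCS contrast, so the SCS drought points are a description.

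**Figure D3:**
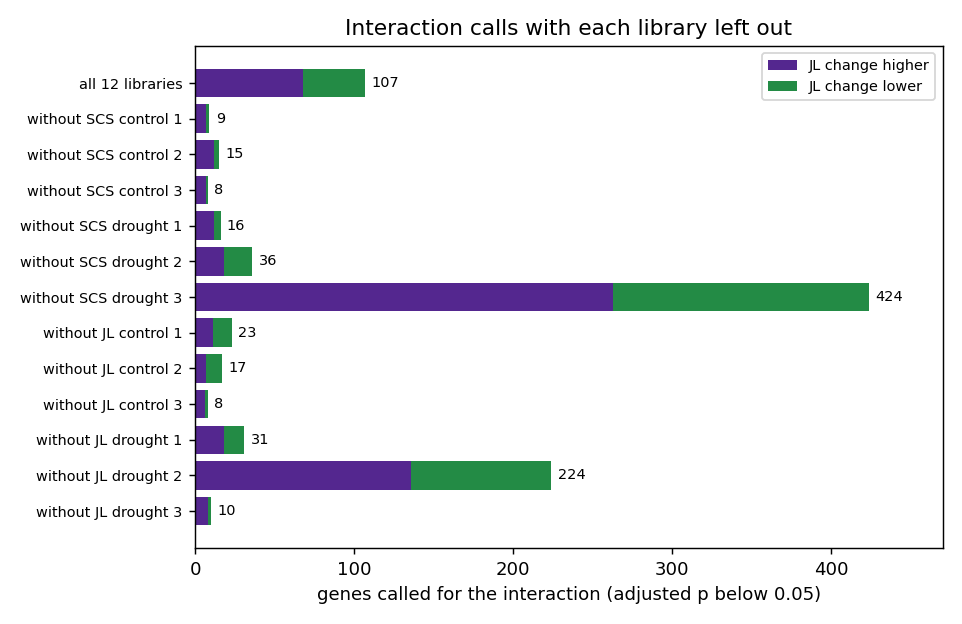
Bars give the number of genes called for the interaction with all 12 libraries (107) and with each library left out, split by direction. The counts run from 8 to 424, with only the fits without SCS drought 3 (424) and JL drought 2 (224) above 107.

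Since the count moved this much, the genes that held the call whichever library was left out are described first. There were 6: a transporter, a lectin, an oxidase, a small MYB-type protein, an uncharacterized protein and a peptide or nitrate transporter. Every other called gene lost the call without at least 1 library, and none of the 107 changed sign in any of the 12 fits. Of the 6, LOC8084563 was lower in the interaction and the other 5 higher.

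LOC8071382 (chromosome 1, 22813477 to 22822834) had the lowest p of all genes. Its product is a putative arsB transporter, named after a bacterial arsenite efflux protein. It measured 152, 185 and 219 CPM in SCS control, 7.11, 7.55 and 10.5 in SCS drought, 161, 167 and 171 in JL control and 202, 344 and 324 in JL drought. The SCS drought libraries stood far below all others, and the JL drought libraries above their own controls with no overlap. The interaction was 5.27 (95% interval 4.40 to 6.14, adjusted p = 0.00121 in edgeR's quasi-likelihood test), from a change of -4.47 in SCS and of 0.80 in JL. Leaving out single libraries gave 5.10 to 5.47.

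LOC8084563 (chromosome 1, 67327300 to 67329184) encodes the ricin B-like lectin R40C1, of a family known in rice for responding to ABA and salt. Its levels were 10.7, 5.71 and 7.28 CPM in SCS control and 3200.2, 1939 and 816 in SCS drought. In JL they were 18.4, 29.5 and 30.2 in control and 8.99, 2.22 and 10.2 in drought. The lectin thus rose in every SCS drought library, and every JL drought library lay below every JL control. The interaction was -9.84 (95% interval -11.99 to -7.68, adjusted p = 0.00602), from 7.98 in SCS and -1.86 in JL. A second member of the family, R40G3 (LOC8072365, named after its values were seen), averaged 54.5 and 900 CPM in SCS control and drought and 85.0 and 69.2 in JL, with an interaction of -4.34 (adjusted p = 0.0298).

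LOC8061940 encodes berberine bridge enzyme-like 22, of a family of flavin-dependent oxidases. SCS went from 36.2, 26.5 and 51.1 CPM in control to 2.29, 2.13 and 1.94 in drought, while JL had 51.4, 53.6 and 46.3 in control and 42.8, 35.6 and 58.4 in drought. The JL groups overlapped, and SCS drought lay below every other library. Its interaction was 4.01 (95% interval 3.12 to 4.90, adjusted p = 0.00602).

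LOC8064723, protein RADIALIS-like 3, belongs to small MYB-domain proteins named after a flower symmetry gene of snapdragon. It fell from 84.1, 69.5 and 159.9 CPM to 0.84, 0.203 and 0.574 in SCS, and measured 165, 184 and 144 CPM in JL control and 138, 60.8 and 187 in JL drought. Again SCS drought alone was low and the JL groups overlapped, giving an interaction of 7.23 (95% interval 5.49 to 8.98, adjusted p = 0.00976). A second gene of the same product name, LOC8073158, was also called, at 5.54 (adjusted p = 0.0453). The sources used here do not say how reads shared by such close copies were counted.

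LOC110433327, an NRT1/PTR family 8.1-like protein of a family that moves nitrate or small peptides, had 43.5, 15.3 and 34.5 CPM in SCS control and 0.056, 0 and 0.0441 in SCS drought. JL had 35.2, 57.9 and 77.0 CPM in control and 18.2, 19.6 and 53.9 in drought. Only 2 counts fell in the SCS drought libraries together, so SCS control exceeded SCS drought 917-fold with a 95% binomial interval of 254 to 7580, which covers counting error only. The interaction was 8.69 (95% interval 6.47 to 10.90, adjusted p = 0.00998). The uncharacterized LOC8081142 dropped in SCS from 50.5, 41.0 and 118 CPM to 0.504, 0.608 and 0.662, against 222, 151 and 143 in JL control and 103, 92.6 and 189 in JL drought, with an interaction of 6.44 (adjusted p = 0.00602).

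**Figure D4:**
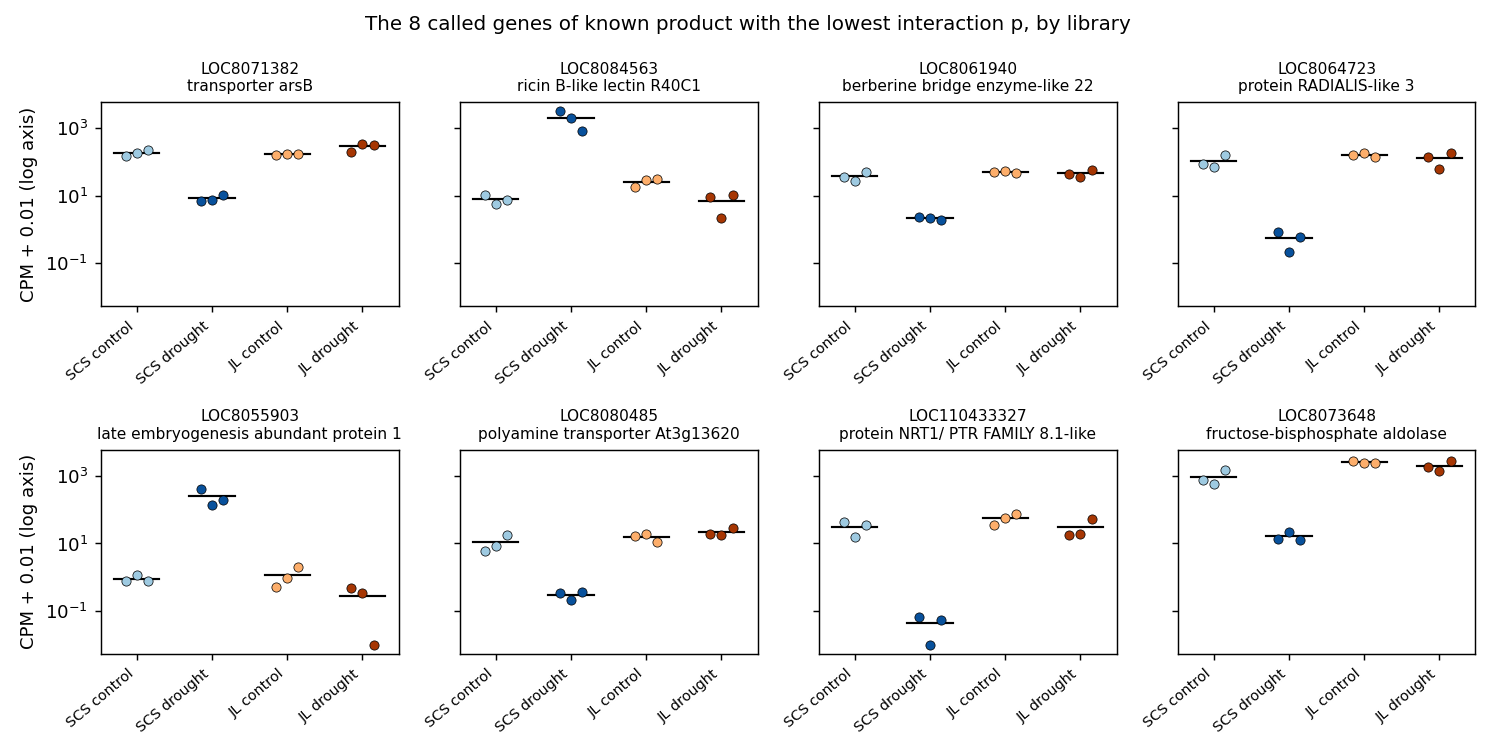
Each panel shows 1 of the 8 called genes of known product with the lowest interaction p; points are libraries, bars are group means, and the vertical log axis is CPM plus 0.01. SCS drought lies below the other groups for 6 of the genes, and for the R40C1 lectin and LEA 1 it lies higher than they do, and in each panel the JL drought mean is nearer to JL control than to SCS drought.

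Genes of the chloroplast and of carbon fixation were among those that fell in SCS and had JL changes near 0. The chloroplast fructose-bisphosphate aldolase LOC8073648, a Calvin cycle enzyme, measured 781, 559.6 and 1519 CPM in SCS control and 13.9, 22.5 and 13.0 in SCS drought. JL had 2770.3, 2497 and 2353 CPM in control and 1836, 1382 and 2715 in drought. SCS drought lay under every other library and the JL groups overlapped. The interaction was 5.49 (95% interval 4.08 to 6.91, adjusted p = 0.00998), and it stayed below the threshold in 11 of the 12 fits without 1 library, with an adjusted p of 0.0612 in the other. The aldolase is named here after its values were seen.

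Chloroplast triosephosphate isomerase (LOC8063311), which acts just before the aldolase step, had 562, 561 and 895 CPM in SCS control, 87.0, 75.6 and 96.1 in SCS drought, 1419.9, 1268 and 648 in JL control and 882, 1681 and 997 in JL drought. Its interaction was 3.06 (95% interval 1.86 to 4.26, adjusted p = 0.0422). RETICULATA-RELATED 4 (LOC8074089), a chloroplast membrane protein of a family named after an Arabidopsis leaf-reticulation mutant, fell from 422, 363 and 1184 CPM to 1.01, 7.5 and 7.64 in SCS. In JL it had 2655, 1981 and 1181 CPM in control and 1560.2, 1677 and 1404 in drought, and the interaction was 6.60 (95% interval 4.30 to 8.90, adjusted p = 0.0314). Products that name the plastid made up 11 of the 68 higher genes (16.2%), 1 of the 39 lower genes (2.56%) and 6.18% of all tested genes, with a search pattern chosen after values were seen. The exception among the lower genes was phytoene synthase 2 (LOC8077239), which opens carotenoid synthesis and had an interaction of -3.19 (adjusted p = 0.0293).

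The photosynthesis lists held few calls and many genes at a low unadjusted p. They were searched by product name, so they do not hold the called psbC, described below, which has no product description. Of 62 tested genes of the photosystems, electron transport and antenna, 0 were called, but 33 had an unadjusted p below 0.05 with a higher JL change and 0 with a lower one, 53.2% against the 9.6% of all genes. Their median change was -1.89 in SCS and 0.01 in JL, and 24 of the 62 fell in SCS. A chlorophyll a-b binding protein of LHCII type 1 (LOC8082496), part of the main light-harvesting antenna, averaged 1176 and 15.2 CPM in SCS control and drought and 7237 and 6351 in JL, with an interaction of 6.08 (adjusted p = 0.0657). The gene of lowest p in the list was subunit B 4 of the photosynthetic NDH complex (LOC8073405), which takes part in electron flow around photosystem I, with an interaction of 2.36 (adjusted p = 0.0546).

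Plastid ribosomal proteins, which build the ribosomes that translate chloroplast-encoded genes, had the highest such share. With 0 of 42 called, 30 of them (71.4%) had an unadjusted p below 0.05 with a higher JL change and 0 with a lower one. Their median was -1.50 in SCS and 0.52 in JL, and the median interaction was 2.17 against 0.13 for all genes. The mean log2 CPM of the list was 6.73, 6.14 and 5.61 in JL control and 6.0, 7.33 and 5.77 in JL drought, so only the second JL drought library lay above the JL controls. The 30S protein S21 (LOC8079435) averaged 157 and 26.1 CPM in SCS control and drought and 242 and 279 in JL, an interaction of 2.79 (adjusted p = 0.0542). Of 185 cytosolic ribosomal proteins 0 were called, at a median interaction of -0.34. An unadjusted p of 0.05 was passed by 0 with a higher JL change and 5 with a lower one. The 5 were 2.7% of the list, against 5.83% of all genes.

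The search pattern for enzymes of the C4 and Calvin cycles found 39 tested genes and did not take in aldolases, so the called aldolase above is not counted. Of the 39, 1 was called higher (the isomerase above) and 1 lower, and 19 and 3 passed an unadjusted p of 0.05, at a median interaction of 1.41. The 19 and 3 were 48.7% and 7.69% of the list, against 9.6% and 5.83% of all genes. Pyruvate, phosphate dikinase 1 (LOC110430571), which regenerates the carbon acceptor of the C4 cycle, averaged 21742 and 3641 CPM in SCS control and drought and 45517 and 38752 in JL, with an interaction of 2.35 (adjusted p = 0.19). Phosphoenolpyruvate carboxylase 3 (LOC8058886) averaged 22253 and 3716 CPM in SCS and 52576 and 50496 in JL, with an interaction of 2.52 (adjusted p = 0.257). The gene called lower was an NADP-dependent malic enzyme without a plastid label, LOC8075558. It had 0.446, 0.25 and 0.227 CPM in SCS control, 1272, 573 and 264 in SCS drought, 0.595, 0 and 0.135 in JL control and 0.0782, 1.2 and 0.22 in JL drought, an interaction of -10.10 (95% interval -13.82 to -6.38, adjusted p = 0.0371). The chloroplast malic enzyme LOC8078737 had an interaction of 0.63 (adjusted p = 0.701). Of 29 chlorophyll synthesis genes 0 were called. An unadjusted p of 0.05 was passed by 6 with a higher JL change and 0 with a lower one. The 6 were 20.7% of the list, against 9.6% of all genes. They were led by glutamyl-tRNA reductase (LOC8079551), the controlled first step of the pathway, at 3.99 (adjusted p = 0.0962).

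**Figure D5:**
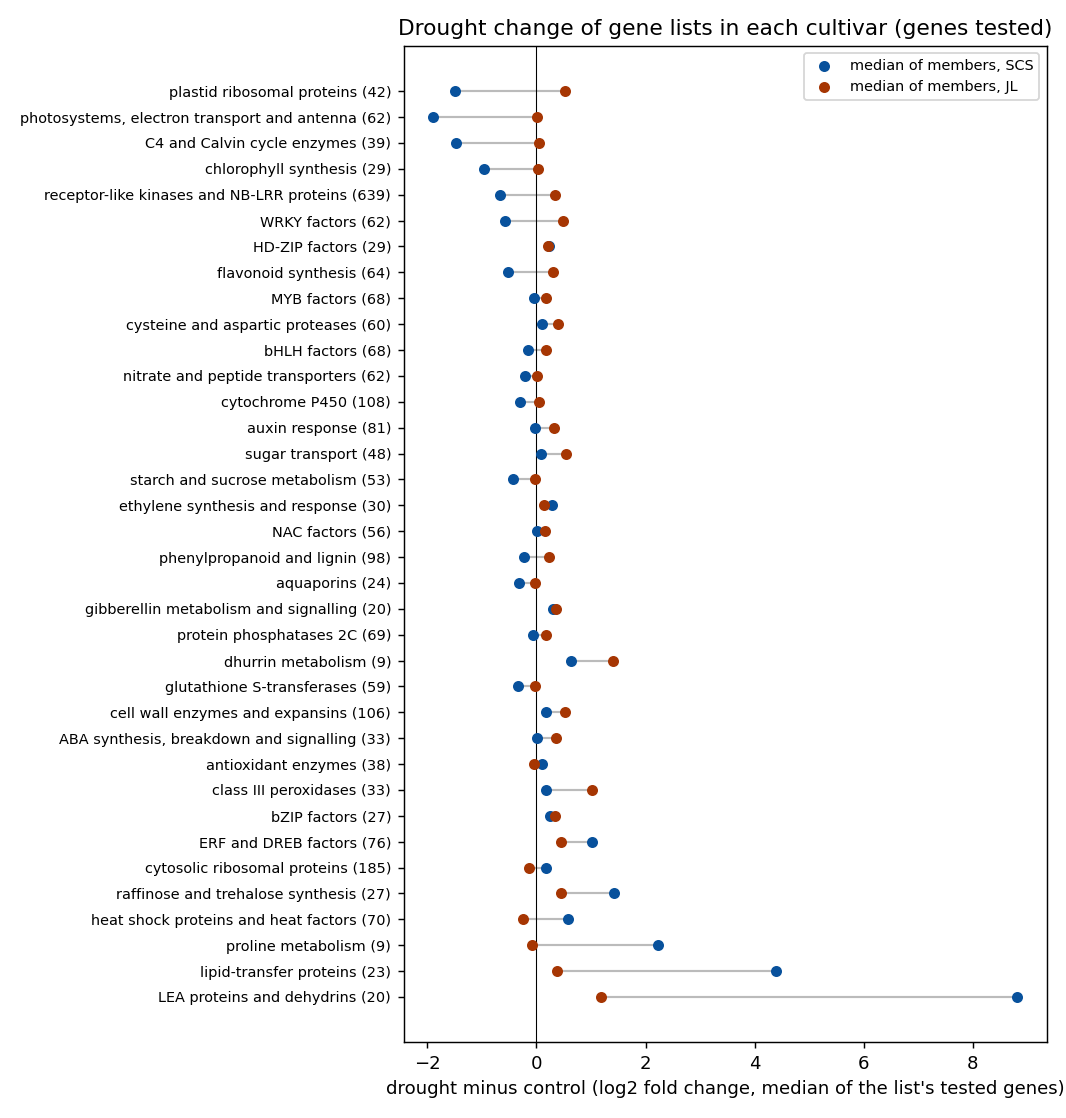
For each gene list the points give the median drought minus control log2 fold change of its tested members in SCS and in JL, with the number of members in brackets and lists ordered by their median interaction. Plastid ribosomal proteins, photosystems and C4 and Calvin enzymes lie to the left in SCS, LEA and lipid-transfer proteins far to the right, and the JL medians between -0.25 and 1.41.

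On the other side stood genes of dehydration protection. Of 20 tested LEA and dehydrin genes 15 rose in SCS, against 4.09% of all genes. The JL change was the lower in all 20, against 9369 of the 20873 genes tested. Of 33 such genes 20 passed the filter on low counts, and members low in the other groups could pass only through SCS drought. The filter may thus partly fix these counts and the shares and medians of the list below, which are a description. None of the 20 passed the adjusted threshold in JL, where 0 of all genes did. LEA protein 1 (LOC8055903, chromosome 1, 67521488 to 67523058) measured 0.758, 1.13 and 0.739 CPM in SCS control and 399, 142 and 197 in SCS drought. JL had 0.51, 0.918 and 2.02 CPM in control and 0.469, 0.342 and 0 in drought. SCS drought lay above all other libraries, and JL drought below JL control. The order in JL rests on few counts, 47 over the JL control libraries and 10 over JL drought. The nearest JL libraries, at 0.51 and 0.469 CPM, were hardly apart. The interaction was -10.22 (95% interval -12.74 to -7.70, adjusted p = 0.00992), and it held in 10 of the 12 fits without 1 library, with an adjusted p of up to 0.061.

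The LEA 1 gene was the 1 called member of the 20, 13 of which passed an unadjusted p of 0.05 with a lower JL change (65%, against 5.83% of all genes) and 0 with a higher one. The median change was 8.81 in SCS and 1.18 in JL, and the median interaction was -4.74. In 8 of the 20 at least 1 group had fewer than 3 counts over its libraries, and with those groups set to 3 counts the median was -6.56. Dehydrin DHN1 (LOC8077913) averaged 0.329 and 5566 CPM in SCS control and drought and 6.59 and 69.5 in JL, an interaction of -10.64 (adjusted p = 0.109). Dehydrin COR410 (LOC8073921) averaged 59.6 and 1824 CPM in SCS and 24.1 and 69.7 in JL, at -3.41 (adjusted p = 0.289). The mean log2 CPM of the list was 0.55, 2.60 and 0.08 in the 3 JL drought libraries, against 6.41 to 8.29 in SCS drought and -0.15 to 0.80 in JL control, so only the second JL drought library lay above the JL controls.

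Called lower outside that list, besides the R40 lectins, were 3 genes whose product names refer to ABA or low temperature, a grouping made after values were seen. The ABA-inducible protein PHV A1 (LOC8059830), known in barley as a LEA protein, had 4.5, 2.08 and 0.512 CPM in SCS control, 2445, 1756 and 789 in SCS drought, 0.679, 0 and 0.81 in JL control and 0.313, 0 and 0 in JL drought. Its interaction was -11.63 (95% interval -15.58 to -7.69, adjusted p = 0.0314). The low-temperature-induced protein LOC8065192, whose Arabidopsis relatives respond to ABA, had 0 counts in all 3 SCS control libraries and 1519, 879 and 322 CPM in SCS drought, at least 18300-fold higher against 3 counts over the control group. JL had 0.255, 0.334 and 0 CPM in control and 1.17, 0.428 and 0 in drought, and the adjusted p of the interaction was 0.0457. Low temperature-induced protein lt101.2 (LOC8084551), of a family of small membrane proteins, went from 0.713, 2.08 and 1.59 CPM to 499.6, 147 and 281 in SCS, against 1.44, 0.25 and 3.98 in JL control and 2.19, 1.88 and 0.293 in JL drought, an interaction of -8.12 (adjusted p = 0.0371). In JL these 3 genes stayed under 5 CPM in every library.

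Non-specific lipid-transfer proteins, small secreted proteins that carry lipids to the cuticle and cell wall, also had mostly negative interactions. Of 23 tested, 1 was called lower, 11 passed an unadjusted p of 0.05 with a lower JL change (47.8%) and 1 with a higher one, at a median interaction of -3.65. Over all genes 0.187% were called lower, and 5.83% and 9.6% passed the unadjusted threshold with a lower and a higher JL change. Of 52 such proteins 23 passed the filter on low counts, which may have kept some through SCS drought alone, so these shares are a description. The called member LOC8061116 had 0, 0.125 and 0.171 CPM in SCS control and 100.5, 153 and 61.0 in SCS drought. In JL it had 0.679, 0.834 and 2.09 CPM in control and 0.313, 2.31 and 0.659 in drought, an interaction of -10.15 (95% interval -13.02 to -7.29, adjusted p = 0.0193).

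Proline genes gave 3 called members of 9 tested, of synthesis and of transport, where 0.513% of all genes were called. Delta-1-pyrroline-5-carboxylate synthase 1 (LOC110430201), which starts proline synthesis from glutamate, had 31.0, 13.0 and 29.9 CPM in SCS control and 664, 389 and 160.3 in SCS drought. JL had 14.6, 14.1 and 43.98 CPM in control and 8.91, 7.87 and 16.4 in drought, an interaction of -5.17 (95% interval -7.17 to -3.16, adjusted p = 0.0413). Ornithine aminotransferase (LOC8062211), the other entry to the pathway, had 41.8, 31.0 and 41.9 CPM in SCS control, 193, 152 and 189 in SCS drought, 31.4, 25.8 and 46.6 in JL control and 27.5, 41.6 and 29.1 in JL drought, an interaction of -2.30 (adjusted p = 0.0392). Proline transporter 1 (LOC8078705) went the other way, from 72.2, 44.7 and 143 CPM to 0.952, 0.76 and 2.96 in SCS, with 159, 184 and 115 in JL control and 88.9, 57.7 and 153 in JL drought, an interaction of 5.17 (adjusted p = 0.0371). Of the 9 proline genes tested, 5 passed an unadjusted p of 0.05 with a lower and 1 with a higher JL change. These were 55.6% and 11.1%, against 5.83% and 9.6% of all genes.

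Of 27 raffinose and trehalose genes 0 were called, and 6 passed an unadjusted p of 0.05 with a lower and 2 with a higher JL change. These were 22.2% and 7.41%, against 5.83% and 9.6% of all genes. The lowest p belonged to a galactinol-sucrose galactosyltransferase (LOC8057100), which makes raffinose: it had 34.1, 44.1 and 31.9 CPM in SCS control, 1195, 1471 and 305 in SCS drought, 22.4, 17.7 and 91.5 in JL control and 43.5, 69.1 and 25.5 in JL drought, an interaction of -4.68 (adjusted p = 0.0778). A second one, LOC8078430, averaged 150.3 and 6897 CPM in SCS control and drought and 81.6 and 339 in JL, at -3.46 (adjusted p = 0.113).

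The list of 53 starch and sucrose genes had 1 called member, sucrose synthase 4, and its median change in SCS was -0.43, with 3 genes called up and 6 called down there. Sucrose synthase 4 (LOC8082319), which cleaves sucrose for glycolysis and cell wall synthesis, had 105, 42.5 and 98.6 CPM in SCS control, 645, 274 and 439 in SCS drought, 51.5, 37.6 and 58.6 in JL control and 21.2, 16.8 and 11.9 in JL drought. Both cultivars had groups that did not overlap, in opposite directions, and the interaction was -4.03 (95% interval -5.36 to -2.70, adjusted p = 0.0298). Of the 53 genes 3 passed an unadjusted p of 0.05 with a lower and 7 with a higher JL change. These were 5.66% and 13.2%, against 5.83% and 9.6% of all genes. Outside the list, and named after their values were seen, the cytosolic phosphoglycerate kinase LOC110431217 had an interaction of -5.09 (adjusted p = 0.0192) and alcohol dehydrogenase 1 (LOC110436814), an enzyme of fermentation, one of -4.46 (adjusted p = 0.0314). The kinase averaged 11.9 and 330 CPM in SCS control and drought and 7.82 and 6.36 in JL.

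Heat shock proteins, which keep other proteins folded, and their activators gave 3 called genes of 70 tested, where 0.513% of all genes were called. Class II heat shock protein LOC8073756 had 0.713, 0.375 and 0.682 CPM in SCS control, 22.2, 10.9 and 10.6 in SCS drought, 1.7, 1.42 and 1.01 in JL control and 0.938, 1.8 and 1.32 in JL drought, an interaction of -4.64 (adjusted p = 0.0293). A heat shock protein of the 70 kDa family, LOC8085292, had one of -4.68 (adjusted p = 0.0457). Heat stress transcription factor A-2d (LOC8082148) went the other way: it had 75.6, 77.7 and 109 CPM in SCS control, 2.52, 1.32 and 3.8 in SCS drought, 330.3, 467 and 189.8 in JL control and 118, 99.2 and 228 in JL drought, an interaction of 3.95 (adjusted p = 0.0392). In the list 17 genes passed an unadjusted p of 0.05 with a lower JL change (24.3%) and 3 with a higher one (4.29%). Over all genes these shares were 5.83% and 9.6%.

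Receptor-like kinases and NB-LRR immune receptors formed the largest list, with 639 tested genes. Of these, 5 were called higher and 0 lower, where 0.326% and 0.187% of all genes were. An unadjusted p of 0.05 was passed by 108 with a higher JL change (16.9%) and 15 with a lower one (2.35%). Over all genes these shares were 9.6% and 5.83%. The median interaction of the list was 1.09, against 0.13 for all genes. The proline-rich receptor-like kinase PERK4 (LOC8084167), of a family that spans the membrane towards the wall, had 112, 190.2 and 275 CPM in SCS control, 10.4, 4.97 and 4.68 in SCS drought, 189, 129 and 39.0 in JL control and 231, 144 and 130.4 in JL drought, an interaction of 5.35 (95% interval 3.50 to 7.19, adjusted p = 0.0314). The inactive receptor kinase LOC8065306 had one of 3.97 and the resistance protein RPM1 gene LOC8066296 one of 4.94, both with an adjusted p of 0.0314. Such receptors occur in large families of close copies, so single values are uncertain.

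Proteases of the cysteine and aspartic classes gave 2 called genes of 60, both higher, where 0.326% of all genes were called higher. The senescence-specific cysteine protease SAG39 (LOC8086230), a marker of leaf ageing in rice, had 71.6, 51.4 and 292 CPM in SCS control and 0.784, 0.101 and 0.574 in SCS drought. JL had 549, 652 and 298 CPM in control and 975, 179.6 and 207 in drought, an interaction of 8.0 (95% interval 4.98 to 11.02, adjusted p = 0.0392). The nepenthesin-type aspartic protease LOC8074284 had 182, 120.4 and 119.7 CPM in SCS control, 0.336, 0 and 1.02 in SCS drought, 154, 136 and 220.3 in JL control and 190.4, 29.7 and 206 in JL drought, an interaction of 7.97 (adjusted p = 0.0392).

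The lists of NAC, MYB, WRKY, bZIP, ERF and DREB, bHLH and HD-ZIP factors, of 27 to 76 tested genes each, held 0 called members, where 0.513% of all genes were called, less than 1 gene per list. They were searched by product name, so the MYB list does not hold the called RADIALIS-like 3 genes described above. NAC factors had 56 tested genes. At an unadjusted p below 0.05, 3 had a higher and 7 a lower JL change (5.36% and 12.5%). ERF and DREB factors, which include activators of dehydration genes, had 76, with 4 and 8 (5.26% and 10.5%). HD-ZIP factors had 29, with 9 and 4 (31% and 13.8%), led by ROC2 (LOC8066825) at 1.77 (adjusted p = 0.0717). Over all genes these shares were 9.6% and 5.83%. Called outside these lists was subunit C-2 of nuclear factor Y (LOC110431645, named after its values were seen), which averaged 170 and 3.48 CPM in SCS control and drought and 356 and 285 in JL, an interaction of 5.29 (adjusted p = 0.0314). Zinc-finger homeodomain protein 3 (LOC8083097) was also called: it had 104, 60.4 and 184 CPM in SCS control, 1.06, 1.37 and 5.25 in SCS drought, 138, 89.5 and 45.3 in JL control and 66.1, 129 and 156 in JL drought, an interaction of 5.86 (adjusted p = 0.0392).

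Genes of ABA synthesis, breakdown and signalling were split. Of 33 tested, 0 were called, at a median interaction of 0.003. An unadjusted p of 0.05 was passed by 4 with a higher and 5 with a lower JL change. These were 12.1% and 15.2%, against 9.6% and 5.83% of all genes. The abscisic stress-ripening protein LOC110429605 had the lowest p, with -3.95 (adjusted p = 0.0721). Protein phosphatases 2C, of which one group holds back ABA signalling, had 0 called of 69. At an unadjusted p below 0.05 there were 4 and 5 (5.8% and 7.25%), near the shares of all genes. Dhurrin genes, which make the cyanogenic glucoside of sorghum, had 0 of 9 called and 0 at an unadjusted p below 0.05, at median changes of 0.64 in SCS and 1.41 in JL. Their mean log2 CPM was 4.60, 3.27 and 4.69 in JL control and 3.95, 5.99 and 3.21 in JL drought, so the second JL drought library alone lay above the controls.

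A small set of called genes moved in opposite directions with no overlap in either cultivar. They were 12 of the 107, against 133 (0.637%) of all tested genes. The interaction is made from these same libraries, so the choice of the genes largely fixes this share, and it is a description. The 12 included the arsB transporter, the R40C1 lectin, sucrose synthase 4 and LEA 1, whose JL side rests on the few counts given above. Another was wall-associated receptor kinase 2 (LOC8076337), of a family known in Arabidopsis to bind cell wall pectin. It had 11.3, 22.8 and 5.57 CPM in SCS control, 0.168, 1.01 and 0.53 in SCS drought, 9.43, 6.26 and 8.77 in JL control and 18.1, 62.4 and 12.6 in JL drought, an interaction of 6.44 (95% interval 3.98 to 8.90, adjusted p = 0.0408). The plastid-encoded psbC, a core antenna protein of photosystem II, had 9.72, 11.7 and 12.7 CPM in SCS control, 4.25, 4.97 and 5.34 in SCS drought, 11.4, 12.9 and 8.7 in JL control and 19.9, 21.6 and 18.2 in JL drought, an interaction of 2.08 (adjusted p = 0.0392). The JL change taken alone passed the adjusted threshold for none of the 107, with a lowest unadjusted p of 0.0036, for sucrose synthase 4, in the edgeR test.

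At the other end were genes that changed in SCS and had an interaction near 0. Remorin 4.1 (LOC8057103), a plasma membrane protein, had 195, 249 and 266 CPM in SCS control, 657, 620.2 and 396 in SCS drought, 181, 226 and 223 in JL control and 348, 655 and 306 in JL drought. Both cultivars were higher in drought with no overlap, by 1.24 in SCS (adjusted p = 0.0449) and 1.06 in JL, and the interaction was -0.18 (95% interval -1.21 to 0.85). Phosphofructokinase 6 (LOC8078732), an enzyme of glycolysis, had a change of 1.02 in SCS (adjusted p = 0.0323) and of 0.60 in JL, and an interaction of -0.42 (95% interval -1.21 to 0.36). These intervals leave room for differences of up to about 1 log2 unit, so they do not show that the cultivars acted alike.

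Summed levels of several cell type marker lists differed between the groups. Called were 0 markers of mesophyll, dividing cells, vasculature, seed and guard cells, and 1 each, both lower, of bundle sheath and of epidermis and cuticle. The former was LOC8075558, the malic enzyme without a plastid label, at means of 0.308 CPM in SCS control and 0.243 in JL control. It entered the list by product name and was near absent from control leaves, so its call is not read as one of bundle sheath. Dividing-cell markers (44 tested) had 1 higher and 2 lower JL changes at an unadjusted p below 0.05 (2.27% and 4.55%, against 9.6% and 5.83% of all genes), and vascular markers 0. Of 12 mesophyll markers 6 passed an unadjusted p of 0.05 with a higher and 1 with a lower JL change (50% and 8.33%). Their median interaction was 2.17. Of 13 bundle sheath markers 5 and 2 did (38.5% and 15.4%), at a median of 1.01. Epidermis and cuticle markers, which include the lipid-transfer proteins above, summed to 612 to 923 CPM in SCS control, 2440.0 to 14696 in SCS drought, 1537 to 2949 in JL control and 1571 to 5664 in JL drought. Dividing-cell markers summed to 1198 to 1420.1 CPM in SCS control, 605 to 1333 in SCS drought and 1041 to 1271 over both JL groups. Seed markers, 8 of which were tested, summed to 34.8 to 45.6 CPM in SCS control, 103 to 420 in SCS drought, 39.0 to 44.96 in JL control and 41.7 to 223 in JL drought. Guard cell markers (8 tested) summed to 119 to 169 CPM in SCS control, 143 to 273 in SCS drought, 202 to 251 in JL control and 87.0 to 270.3 in JL drought, and vascular markers (4 tested) to 416 to 717 over both SCS groups and 948 to 1131 over both JL groups. In JL drought the epidermis and seed highs (5664 and 223 CPM) and the guard cell low (87.0) all came from JL drought 2. The seed sums of JL drought 1 and 3 were 44.4 and 41.7 CPM. The part of any of these cell types in the interaction was not tested.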

How the data were processed

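Strand-specific libraries were made from total RNA of leaves, per the labels' protocols. StringTie 1.3.3b, STAR and HISAT2 2.0.4 appear in the submitters' processing notes without a stated role. Which program counted reads, with what strand setting and on which genome build are points not given in the sources used here, so reads of close copies, and of genes overlapping on either strand, may be shared. The gene table deposited by the authors holds whole-number counts per gene, not normalised, and FPKM, and FPKM served only for 1 alternative. Of its identifiers, 32940 matched assembly Sorghum_bicolor_NCBIv3, 32939 with the same start and end.

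Chi-square tests of counts found no repeated library within a group. Genes were kept with filterByExpr of edgeR 4.0.16 (R 4.3.3), which removed 13024 of 33897, and counts were TMM-scaled. The quasi-likelihood F test was fitted with 1 mean per group over 12 libraries (biological coefficient of variation 63.3%), with calls at 0.05 after Benjamini-Hochberg adjustment over 20873 genes. CPM are TMM-scaled, and single-library log2 CPM use a prior count of 2. A bound against 0 counts uses a floor of 3 counts over the group, and covers counting error only. The test was tried on simulated data, with 50 genes changed in JL drought at each of 4 sizes. The changed genes were drawn only from those averaging at least 10 CPM, so the rates do not cover genes of lower level. The test called 10% of the 4-fold, 38% of the 8-fold, 44% of the 16-fold and 78% of the 32-fold changes. Of 20673 unchanged genes it called 3. Smaller differences between the cultivars were thus mostly missed in the simulation.

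The comparison and the 43 gene lists (search patterns on product descriptions, given by counts and medians with no set test) were chosen with earlier results of these data known. Named genes were, among called genes of known product with at least 10 CPM in the highest group, the 10 highest and 10 lowest interactions, up to 3 called genes per list or its lowest p, up to 5 per direction with opposite signs in the cultivars, and up to 5 called in SCS at 100 CPM or more with the smallest interaction; not every one is printed. Stability under leaving out libraries, and a few genes said to be so, were added after values were seen. Alternatives were DESeq2 1.42.0, limma 3.58.1 (voom with quality weights, and trend on log2(FPKM + 1)), RLE and upper-quartile scaling, no filter, a filter of 10 CPM in 3 libraries, a replicate block and leaving out each library.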

Additional observations from a re-analysis of the deposited data

Results flagged for a closer look

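The drought change differed between the cultivars in 107 genes by the test of the difference itself. In 12 of them the groups of both cultivars were also apart in opposite directions, every SCS drought library on one side of its controls and every JL drought library on the other. They are given here with their interaction, as a description, since the choice of the 107 largely fixes that share. For LEA 1 and LOC8067729 the JL side rests on few counts, 47 and 51 over JL control and 10 and 19 over JL drought.

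Higher in the JL change were the arsB transporter LOC8071382 (5.27), wall-associated receptor kinase 2 LOC8076337 (6.44), the uncharacterized LOC8061318 (4.76), LOC8076189, annotated as a codeine O-demethylase (3.15), the magnesium transporter NIPA4 gene LOC8076746 (2.32) and the plastid gene psbC (2.08). Lower in the JL change were LEA 1 LOC8055903 (-10.22), the R40C1 lectin LOC8084563 (-9.84), the flavin-containing monooxygenase LOC8067729 (-6.41), the acetyltransferase LOC8064329 (-4.85), sucrose synthase 4 LOC8082319 (-4.03) and LOC8080535 (-2.49), which has no product description. The last measured 3.3, 3.42 and 4.15 CPM in SCS control, 11.3, 12.8 and 8.3 in SCS drought, 22.8, 14.2 and 23.6 in JL control and 12.3, 11.7 and 8.13 in JL drought, so the cultivars were apart in control and overlapped in drought.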

How the results depend on the processing

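The number of calls depended on the fit and on single libraries. Against 107 genes (68 higher, 39 lower, 21 in the gene lists), the stricter filter called 212 (143, 69, 43), DESeq2 1322 (780, 542, 241), voom with quality weights 1912 (1172, 740, 344) and the FPKM fit 263 (109, 154, 58). The cause was not tested. RLE scaling gave 106 genes, upper-quartile scaling 94 and no filter 88. Leaving out 1 library gave 8 to 424 genes, 6 to 263 higher, 1 to 161 lower and 1 to 80 in the lists. Replicate numbers did not pair libraries: same-numbered libraries of different groups had correlations of deviations from -0.491 to 0.383, with 5 of 18 over 0.1, and 3 of 12 libraries correlated best with their own number. The replicate block called 17 (7, 10, 4), all among the 107. None of the 107 changed sign in any fit that tested it, 107 were called by DESeq2, 105 by voom, 90 by the FPKM fit and 101 of the 101 kept by the stricter filter, and 5 (LOC8061940, LOC8064723, LOC8071382, LOC8081142 and LOC8084563) in all fits.

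Reversed signs were 2 among the genes named with small interactions: LOC8081538 without JL drought 1 (range -0.0333 to 0.80 over the 12 fits without 1 library) and LOC8057103 without JL drought 3 (range -0.60 to 0.0183). The median interaction over all genes, 0.13, was 0.03 with upper-quartile scaling and 0.003 without JL drought 1. With 3 libraries a group and this spread, changes that were not called are not shown to be absent.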
